A study of Mus musculus with 6 samples.

Results

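The Hox genes of the 4 mouse Hox clusters were followed across a mouse aortic cell line that its labels call endothelial. Members were all genes whose symbol in the deposited gene tables is Hoxa, Hoxb, Hoxc or Hoxd followed by a number. This gave 39 genes of 21675: 11 in the Hoxa cluster, 10 in Hoxb, 9 in Hoxc and 9 in Hoxd. The parental line (WT) carries what the labels write as Fn AB+/- and was immortalized with SV40 under a tetracycline-inducible (TetOn) system. It was expanded with doxycycline and then plated without it, and every library shares this background. A Ptbp1 knockout (KO) was made by CRISPR and is 1 single-cell clone, and human PTBP1 cDNA was put back to give a rescued line (Rescue). Each line was sequenced without TNF and after TNF at 30 ng/mL, giving 6 libraries with 1 library per group and no replicates. The labels and the names of the deposited files disagree for 4 of the 6 libraries. The library labelled WT is also named WT (read from "basal"). The library labelled KO is named WT with TNF, the one labelled Rescue is named KO, and the one labelled WT with TNF is named KO with TNF. The library labelled KO with TNF is named Rescue, and the one labelled Rescue with TNF carries that name too. Groups below are by file name unless stated, with the results by label beside them. Values of the 6 libraries are given in the order WT, WT with TNF, KO, KO with TNF, Rescue, Rescue with TNF.

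Hox genes encode homeodomain transcription factors that give cells their address along the head-to-tail axis of the embryo. They lie in clusters whose order along the chromosome follows the order of their expression along the body: low-numbered (3′) paralogues reach furthest forward, and high-numbered (5′) paralogues act in the trunk's end and the distal limb. Cells such as fibroblasts and vascular smooth muscle keep a Hox pattern of their region of origin in culture, so that the set of active members can be read as a record of position. Hox proteins bind DNA together with cofactors of the TALE family (Pbx, Meis and Pknox), and Polycomb and Trithorax proteins keep members silent or active.

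The sequences just upstream of the start are shown for paralogues of the same group that were expressed in 1 cluster and silent in another, and for Hoxa5, a strongly expressed member. They are the 250 bases before the start in RefSeq on GRCm38.p6, 5′ to 3′ on the gene's strand, with CG pairs in capitals. RefSeq windows were matched for 22 of the 39 members.
Hoxb8: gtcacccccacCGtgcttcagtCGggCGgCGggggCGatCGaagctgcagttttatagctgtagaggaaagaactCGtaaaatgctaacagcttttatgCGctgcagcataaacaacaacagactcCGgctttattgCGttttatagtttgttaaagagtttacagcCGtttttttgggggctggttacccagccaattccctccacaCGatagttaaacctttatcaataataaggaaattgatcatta
Hoxd8: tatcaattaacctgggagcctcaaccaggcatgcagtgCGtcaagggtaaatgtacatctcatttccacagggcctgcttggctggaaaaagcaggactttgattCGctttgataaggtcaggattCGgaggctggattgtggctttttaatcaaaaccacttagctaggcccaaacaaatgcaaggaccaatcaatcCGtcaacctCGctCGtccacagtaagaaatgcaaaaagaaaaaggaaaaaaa
Hoxb4: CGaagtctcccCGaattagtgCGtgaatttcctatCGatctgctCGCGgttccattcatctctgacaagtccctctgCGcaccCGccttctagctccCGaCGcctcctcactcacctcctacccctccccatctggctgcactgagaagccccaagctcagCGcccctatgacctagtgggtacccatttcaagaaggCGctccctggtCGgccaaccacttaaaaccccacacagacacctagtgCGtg
Hoxd4: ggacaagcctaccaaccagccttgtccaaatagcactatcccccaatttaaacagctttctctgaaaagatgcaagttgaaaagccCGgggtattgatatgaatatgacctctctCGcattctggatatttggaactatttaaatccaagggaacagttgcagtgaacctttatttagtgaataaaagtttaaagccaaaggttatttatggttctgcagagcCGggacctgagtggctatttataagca
Hoxa5: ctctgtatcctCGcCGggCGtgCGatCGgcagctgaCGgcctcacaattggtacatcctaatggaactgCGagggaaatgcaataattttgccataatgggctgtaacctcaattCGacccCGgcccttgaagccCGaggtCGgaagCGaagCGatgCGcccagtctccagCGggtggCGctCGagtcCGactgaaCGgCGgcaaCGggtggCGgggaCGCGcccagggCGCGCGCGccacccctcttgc
The windows lie on chromosome 11 at chr11:96281655-96281904 (Hoxb8, + strand) and chr11:96318017-96318266 (Hoxb4, + strand). Those of the silent paralogues lie at chr2:74704365-74704614 (Hoxd8, + strand) and chr2:74721728-74721977 (Hoxd4, + strand). The Hoxa5 window lies at chr6:52204588-52204837 (- strand). None overlaps an exon of the GENCODE vM21 annotation. The expressed Hoxb8 had 12 CG pairs against 6 in the silent Hoxd8, and the expressed Hoxb4 had 14 against 3 in the silent Hoxd4. Other groups did not follow this order: the expressed Hoxa9 had 3 against 13 in the silent Hoxd9, and the 2 windows of Hoxa10 had 20 and 7 against 20 in the silent Hoxd10. The silent Hoxd13 and Hoxd1 had 31 and 24. Hoxa5 had 28, and the median of all 32851 mouse windows of this length was 6.0. The motif TATAAA, searched on both strands, was found in the windows of Hoxb8 and Hoxd4 and in 12.4% of all windows. CCAAT on either strand was in the windows of Hoxa5, Hoxb8, Hoxd4 and Hoxd8 and in 33.8% of all. These matches describe letters and not bound sites.

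Libraries held 19598773 to 21626838 expected counts. The floor that 3 counts set was 0.139 to 0.153 CPM (counts scaled to the library total), and covers counting error only. The RNA of the disrupted gene, Ptbp1, did not separate the lines as the labels would have it: it was at 236.22, 270.18, 265.75, 275.13, 126.63 and 128.90 TPM (transcript abundance scaled for length and library size). It was lowest in the libraries named Rescue and was not lower in those named KO than in WT. Ptbp2, a paralogue that Ptbp1 represses, was at 22.79, 20.67, 127.88, 106.05, 42.21 and 45.29 TPM and was therefore highest in the libraries named KO, which are labelled Rescue and WT with TNF. Ccl2, a chemokine that TNF induces, was at 148.60, 6016.54, 104.66, 1138.03, 169.15 and 5201.84 TPM, so that it was high in the 3 libraries named TNF. Both genes go against the labels. The labelled cell type was not borne out either: 13 of 16 endothelial markers stayed under 1 TPM in every library, with Sox17 and Cldn5 at 0, Pecam1 at 0.33 TPM at most and Cdh5 at 0.64. Those that reached 1 TPM were Flt1, at 3.08 to 12.5 TPM, Egfl7, at 1.97 to 12.81 TPM, and Erg, at 1.05 TPM at most. The summed endothelial level was 7.4 to 21.5 TPM. That of 16 smooth muscle and fibroblast markers was 4989.7 to 12027.7 TPM, led by the collagens Col1a1 and Col1a2. Of these 16, 2 smooth muscle genes stayed under 1 TPM in every library: Myh11 at 0.30 TPM at most and Myocd at 0.07. Of 9 epithelial markers, 8 stayed under 1 TPM throughout, the exception being Krt19. Of 8 blood cell and macrophage markers found, 6 stayed under 1 TPM, with Ptprc and Cd3e at 0. The others were Cd68, at 10.32 to 29.28 TPM, and Lyz2, at 3.07 to 11.91 TPM. The blood list summed to 21.1 to 33.9 TPM. In KO against WT, 16.8% of all genes were higher and 16.3% lower. Beside these shares, 1 of 7 tested endothelial genes was higher (Egfl7, 1.05 on the log2 scale) and 2 were lower (Kdr, -2.55, and Tek, -1.82). Of 15 tested smooth muscle and fibroblast genes 0 were higher and 5 lower. Among the lower ones were Tagln at -0.77, Pdgfra at -2.73, Dcn at -3.87 and Thy1 at -8.32. Of the tested epithelial and blood genes, 2 and 3, none passed in edgeR for KO against WT.

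All 3 lines expressed the same central block of the Hoxa, Hoxb and Hoxc clusters and left the Hoxd cluster silent. The same 22 members reached 1 TPM in all 6 libraries, among them Hoxa2 to Hoxa7, Hoxa9, Hoxa10, Hoxb2 to Hoxb9, Hoxc4 to Hoxc6, Hoxc8 and Hoxc9. Another 13 members had 3 counts or fewer in every library, and 11 of them had none: Hoxa11, Hoxb1, Hoxc11, Hoxc12, Hoxd1, Hoxd3 and Hoxd8 to Hoxd12. The other two, Hoxd4 and Hoxd13, had at most 2 counts and 1 count. The remaining 4 members, Hoxa13, Hoxb13, Hoxc10 and Hoxc13, differed between the lines. The expressed set therefore ran up to paralogue group 10 in Hoxa, from group 2 to group 9 in Hoxb and from group 4 to group 9 in Hoxc, with the low posterior levels in the Rescue libraries beyond it.

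Most Hox RNA came from the middle of the clusters. Summed over the 39 genes the level was 1268, 800, 1270, 734, 995 and 643 TPM. Paralogue groups 4 to 8 gave 83.5, 80.0, 83.1, 81.0, 80.2 and 77.2% of it. Group 6 alone gave 40.8, 43.8, 40.3, 40.5, 37.8 and 40.3%. Groups 9 to 13 gave 5.5, 9.5, 6.3, 8.3, 8.6 and 13.4%. The Hoxc cluster held the largest part, at 45.7, 45.6, 47.5, 46.8, 49.7 and 49.9%. Hoxd summed to at most 0.1 TPM in any library.

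**Figure D1:**
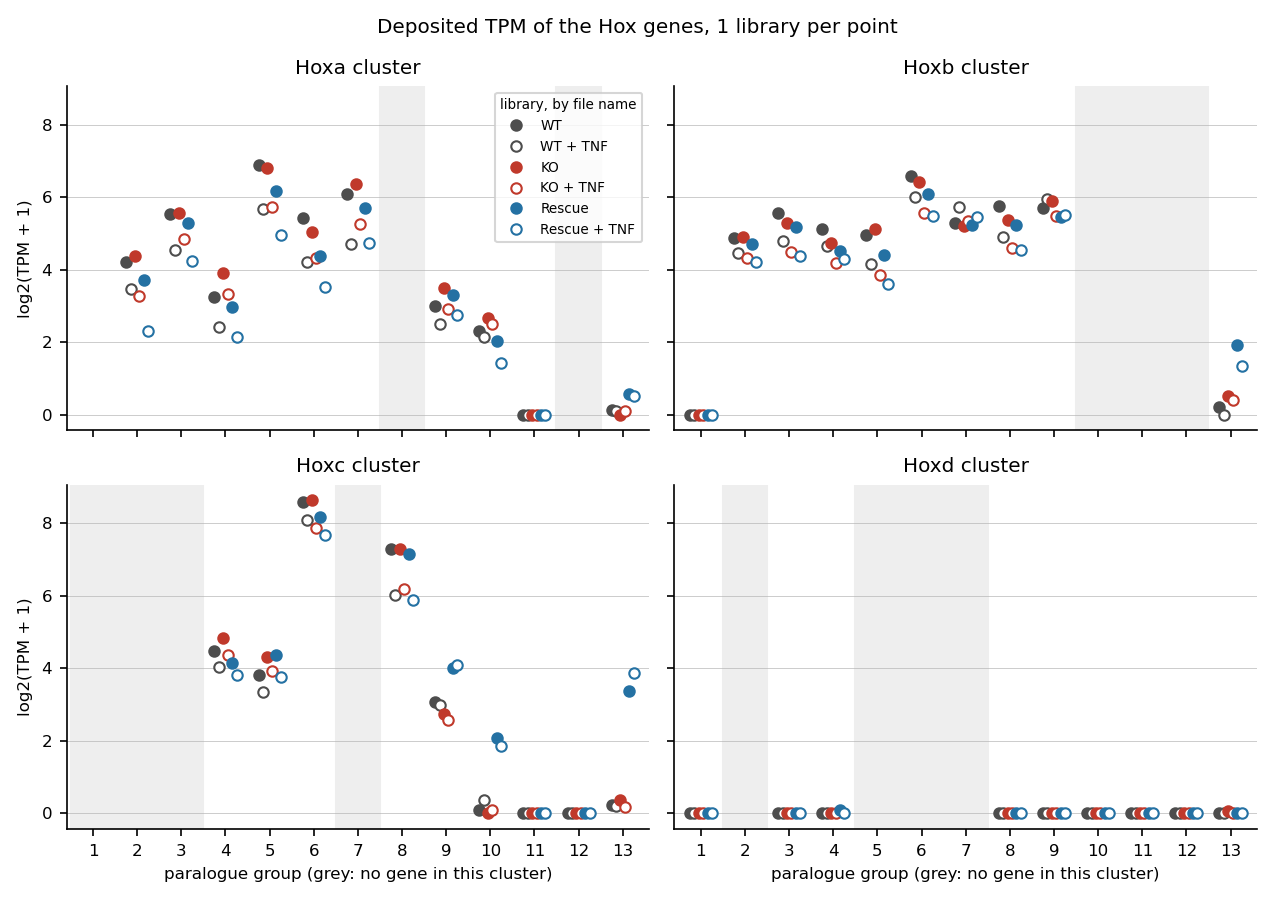
Deposited TPM of the Hox genes reported here on a log2(TPM + 1) scale (vertical) against paralogue group (horizontal), 1 panel per cluster and 1 point per library; filled points are libraries without TNF and open points those with TNF, coloured by line. The central groups of Hoxa, Hoxb and Hoxc are expressed in every library, all Hoxd members lie at or near 0, and the Rescue libraries stand above the others at Hoxc9, Hoxc10, Hoxb13 and Hoxc13.

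In the Hoxc cluster (chromosome 15), the thoracic-level gene Hoxc6 was the most abundant member on average, at 380.69, 269.30, 395.61, 232.38, 289.27 and 204.88 TPM. Hoxc8, a further thoracic-level gene, followed at 156.92, 63.57, 155.59, 72.44, 140.54 and 58.01 TPM. Each was lower in all 3 libraries with TNF than in all 3 without it. Hoxc4 was at 21.36, 15.48, 27.45, 19.46, 16.74 and 13.07 TPM. Hoxc5 was at 13.17, 9.25, 19.05, 14.11, 19.71 and 12.67 TPM. The annotated range of Hoxc5 (chr15:102967443-103017429) spans Hoxc6, Hoxc8 and Hoxc9 and overlaps Hoxc10, so that the split of reads between these genes is uncertain.

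In the Hoxa cluster (chromosome 6) the level peaked at Hoxa5, which patterns the neck and lung, with 117.90, 50.36, 110.83, 51.90, 71.50 and 30.25 TPM. Hoxa7 followed at 67.30, 25.08, 80.48, 37.44, 50.64 and 25.88 TPM. Hoxa3, needed for organs of the third pharyngeal arch and pouch, was at 45.68, 22.46, 46.26, 27.77, 37.66 and 17.90 TPM. These 3 genes shared a pattern: within each line the library with TNF was lower, and Rescue was lowest among the untreated lines. Hoxa6 was at 41.60, 17.58, 32.02, 18.83, 19.95 and 10.39 TPM. Hoxa2, which specifies the second pharyngeal arch, was at 17.43, 10.08, 19.86, 8.64, 12.13 and 3.91 TPM. Hoxa4 was at 8.53, 4.30, 14.08, 8.98, 6.81 and 3.45 TPM, with both KO libraries above the matching libraries of the other lines. The genomic range of Hoxa3 (chr6:52169062-52213336) holds Hoxa4, Hoxa5 and Hoxa6, so reads may be divided among them with error. Levels then dropped towards the 5′ end. Hoxa9, which has roles in blood-forming and endothelial cells, was at 7.01, 4.67, 10.33, 6.49, 8.89 and 5.70 TPM. Hoxa10 was at 3.94, 3.38, 5.36, 4.70, 3.12 and 1.70 TPM.

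The Hoxb cluster (chromosome 11) was the most even along its length. Hoxb6 was at 95.44, 63.29, 84.11, 46.26, 66.53 and 43.74 TPM. Hoxb8 was at 53.40, 29.11, 40.11, 23.43, 36.64 and 22.27 TPM, and Hoxb3 at 46.14, 26.71, 38.05, 21.46, 35.39 and 19.65 TPM. WT was the highest line for each of them, with and without TNF. Hoxb4, known for its effect on blood stem cells, was at 33.85, 24.20, 25.57, 17.17, 22.03 and 18.51 TPM. Hoxb5 was at 30.09, 16.68, 33.80, 13.52, 20.21 and 11.16 TPM. Both were lower with TNF in every line. Hoxb9 was at 50.70, 60.88, 58.34, 44.03, 42.56 and 44.20 TPM. Hoxb7 was at 38.04, 51.81, 36.01, 39.26, 36.82 and 42.61 TPM, and was higher with TNF in every line. Hoxb2 was at 28.23, 21.08, 28.64, 18.85, 24.98 and 17.53 TPM, but the authors' second quantification, which includes an overlapping antisense transcript, put it at only 2.2, 2.7, 2.4, 1.7, 2.0 and 1.8 TPM.

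Spearman's correlation of TPM over the 22 members expressed in all libraries was 0.982 between WT and KO, 0.960 between WT and Rescue and 0.971 between KO and Rescue without TNF. With TNF it was 0.949, 0.962 and 0.929, so that WT was then nearer in rank order to Rescue than to KO. Between TNF and no TNF it was 0.944 in WT, 0.960 in KO and 0.947 in Rescue. The genes share their library, length scaling and clusters, so these values describe the libraries and carry no test. Over all 39 members, the root mean square difference on the log2(TPM + 1) scale was 0.24 between WT and KO without TNF and 0.31 with TNF. It was 0.76 between WT and Rescue and 0.76 between KO and Rescue without TNF, and 0.79 and 0.82 with TNF. The matching difference between TNF and no TNF within a line was 0.57, 0.55 and 0.58. By this second measure, which includes the posterior members, WT and KO were nearer to each other than either was to Rescue, and nearer than the TNF pairs of any line.

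Hoxc9, Hoxc10, Hoxc13 and Hoxb13, members of the posterior groups, set the Rescue libraries apart. Other expressed members of groups 9 and 10 did not share this. On the log2 scale, Rescue against WT and against KO gave -0.69 and -1.13 for Hoxa10 and -0.46 and -0.33 for Hoxb9. For Hoxa9 the values were 0.23 and -0.30. Of these only Hoxa10 against KO passed in edgeR. Hoxc13, a hair and nail regulator at the 5′ end of its cluster (chr15:102921103-102928814), was at 0.17, 0.15, 0.29, 0.12, 9.39 and 13.74 TPM. It had 4, 4, 7 and 3 counts in the WT and KO libraries against 238 and 330 in Rescue, so the groups did not overlap. The share of all genes whose Rescue libraries lie apart in this way is not given here. Summed over both libraries of a line, Hoxc13 was 67.6-fold higher in Rescue than in WT (95% exact counting interval 34.1 to 157) and 53.5-fold higher than in KO (28.9 to 112). These intervals cover counting error only. Hoxc10, a gene of the hindlimb and lumbar level, had 1, 5, 0, 1, 54 and 41 counts, with a highest level of 3.26 TPM. Its range overlaps that of Hoxc5, so the split of reads is uncertain here too. Hoxb13, a gene of the tail end and prostate, had 2, 0, 5, 4, 35 and 18 counts, with a highest level of 2.80 TPM. Both were higher in each Rescue library than in any other library. The ratio of Rescue to WT was 15.1 (6.67 to 42.1) for Hoxc10 and 25.2 (6.64 to 214) for Hoxb13. The ratio of Rescue to KO was 89.4 (15.7 to 3570) for Hoxc10, on 1 count in KO, and 5.54 (2.71 to 12.8) for Hoxb13. Hoxc9 was at 7.44, 6.90, 5.63, 5.0, 15.09 and 16.05 TPM, and its Rescue libraries lay above the other 4. Hoxa13, the digit-patterning member of group 13, had 1, 1, 0, 1, 6 and 5 counts, which stayed under 1 TPM. Hoxc11 and Hoxc12, which lie between Hoxc10 and Hoxc13, had 0 counts in every library.

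Of Hoxc9, Hoxc10, Hoxc13, Hoxb13 and Hoxa13, only Hoxc9 was expressed in all libraries. In edgeR's quasi-likelihood test it was higher in Rescue than in WT by 1.03 ± 0.15 on the log2 scale (adjusted p = 0.0125) and than in KO by 1.46 ± 0.15 (adjusted p = 0.00937). The value after ± (SE) was worked back from the F statistic and restates the test. Hoxb13, Hoxc10 and Hoxc13 passed the filter on low counts only through the Rescue libraries, where they are high, so the counts and ratios above describe them and no test is given. Spliced reads were seen for these genes in Rescue: reads over the introns of Hoxc13 numbered 0, 0, 0, 1, 30 and 30, those of Hoxc10 0, 1, 0, 0, 15 and 8, those of Hoxb13 0, 0, 0, 0, 7 and 3, and those of Hoxc9 14, 35, 29, 23, 82 and 68. Without either of the libraries named Rescue (labelled KO with TNF and Rescue with TNF), no Hox member passed in a comparison with Rescue. Markers of cell types also differed between these lines. The epithelial marker Krt19 was lower in Rescue, at 44.78, 16.66, 30.86, 29.52, 1.89 and 0.96 TPM. Of the 15 smooth muscle and fibroblast genes tested, Des and Lum were higher in Rescue than in WT and Tagln, Cnn1, Pdgfra and Thy1 lower. Of all genes, 12.5% were higher and 12.1% lower there. Against KO, Dcn and Lum were higher and Cnn1, Col1a2 and Col3a1 lower, beside 9.79% and 10.6% of all genes. What part a difference in cell makeup has in the posterior Hox levels was not tested, and fewer cells of a type and less RNA per cell cannot be told apart in bulk RNA.

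**Figure D2:**
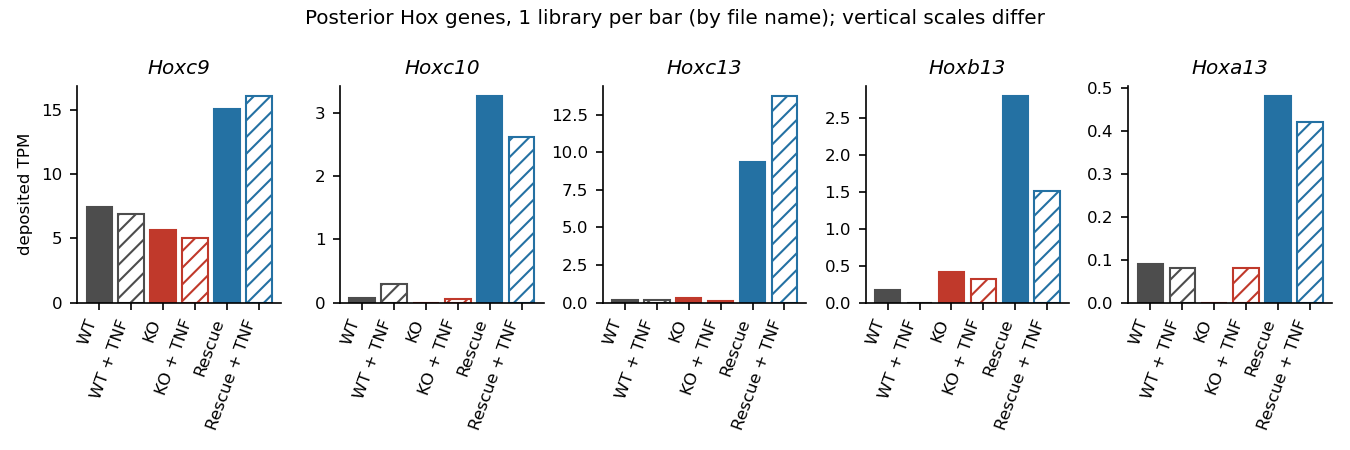
Deposited TPM (vertical, from 0, with a scale of its own in each panel) of Hoxc9, Hoxc10, Hoxc13, Hoxb13 and Hoxa13 in the 6 libraries, 1 bar per library with no error bar because groups have no replicates; hatched bars are libraries with TNF. Both Rescue bars stand above the other 4 for each gene, at 9.39 and 13.74 TPM for Hoxc13 against at most 0.29 elsewhere.

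Many members expressed in all libraries were lower in Rescue. Of the 39 members 25 passed the filter on low counts and were tested. Of the 22 members expressed in all libraries, 11 were lower in Rescue than in WT (50.0%) and 2 were higher (9.09%), beside 12.1% lower and 12.5% higher among all 12729 genes. The median log2 fold change of these 22 was -0.47 against 0.00 over all genes. The lower ones included Hoxa2, Hoxa5, Hoxa6, Hoxb3 to Hoxb6, Hoxb8, Hoxc4 and Hoxc6, and the higher ones were Hoxc9 and Hoxc5. DESeq2 called 9 members lower and 4 higher, the latter being Hoxc9, Hoxb13, Hoxc10 and Hoxc13. Hoxc4, at the edge in edgeR (adjusted p = 0.0499), and Hoxc5 did not pass in DESeq2 (adjusted p = 0.139 and 0.122). The other 3 tested members, Hoxb13, Hoxc10 and Hoxc13, were called higher too, which brings the calls to 16, but they entered the test through Rescue alone. Hoxa6 was lower by -1.01 ± 0.18 (adjusted p = 0.0215 in edgeR) and Hoxa2 by -0.99 ± 0.23 (adjusted p = 0.0398 in edgeR). Hoxa5 was lower by -0.82 ± 0.08 (adjusted p = 0.00618 in edgeR). Without the library labelled KO (named WT with TNF) 5 of the 16 passed, and without the one labelled WT 8 did. For Hoxa5 every Rescue library lay below the WT and KO libraries of the same treatment.

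Against KO, 10 of the 22 members were lower in Rescue (45.5%) and 1, Hoxc9, was higher (4.55%), beside 10.6% and 9.79% of all genes. Their median was -0.37 against 0.01 over all genes. The 10 were Hoxa2 to Hoxa7, Hoxa10, Hoxc4, Hoxc6 and Hoxc8. No Hoxb member of the 22 passed in edgeR, while DESeq2 called Hoxb5 lower. The largest fall was that of Hoxa4, at -1.29 ± 0.18 (adjusted p = 0.0166 in edgeR), followed by Hoxa10 at -1.13 ± 0.24 (adjusted p = 0.035 in edgeR). Of 9 Hoxa members expressed in all libraries, 7 fell here, with a median of -0.80. By label the fitted sign was the opposite for Hoxa4 (0.50), Hoxa7 (0.30), Hoxa10 (0.02), Hoxc4 (0.26), Hoxc6 (0.01) and Hoxc9 (-0.06), and none passed. These comparisons share the Rescue libraries, so their calls are not independent.

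Few members separated KO from WT. Of the 25 members, 4 were higher in KO (16.0%) and 3 lower (12.0%), beside 16.8% and 16.3% of all genes, so that the shares were near the background. The higher ones were Hoxa4 at 0.89 ± 0.18, Hoxc5 at 0.57 ± 0.11, Hoxa9 at 0.52 ± 0.14 and Hoxa7 at 0.41 ± 0.12. Their adjusted p in edgeR ran from 0.0173 for Hoxc5 to 0.0487 for Hoxa7. The lower ones were Hoxb4 at -0.44 ± 0.11, Hoxb8 at -0.36 ± 0.07 and Hoxb3 at -0.29 ± 0.07. By label 3 of the 7 had the opposite sign, with Hoxa4 at -0.68 and Hoxa7 at -0.37, and none passed. With TNF left out of the model 0 members passed, and DESeq2 called 4, beside 3605 of all genes. Leaving out any library but the one labelled Rescue (named KO) left 0 or 1 member called.

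**Figure D3:**
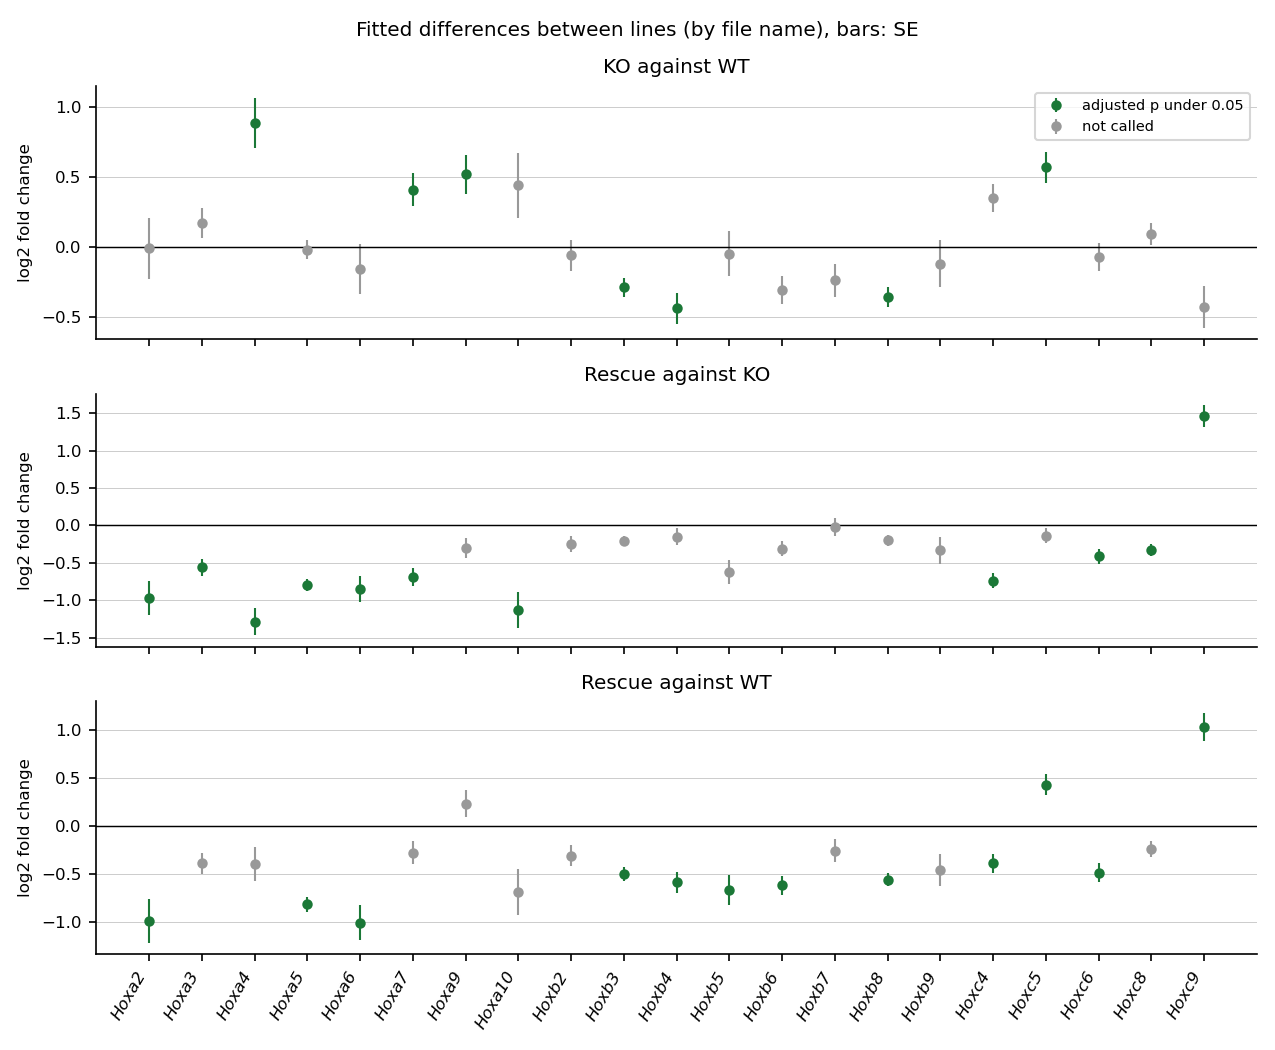
Fitted log2 fold changes (vertical) of the members expressed in all libraries and reported here for the 3 comparisons between lines; bars are the SE that restates the edgeR test, and green points have an adjusted p under 0.05. KO against WT stays within 0.89 of 0 for all called members, while in the comparisons with Rescue most called members lie below 0 and Hoxc9 lies above it at 1.46 and 1.03.

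Most Hox genes tested were lower with TNF. Of the 25 members tested, 17 were lower with TNF (68.0%) and 0 were higher, beside 10.8% lower and 11.2% higher of all genes. At an unadjusted p under 0.05, edgeR had 18 members, of which Hoxb7 was the higher one, beside 5174 of 12729 genes. DESeq2 called 13 members lower and 0 higher, beside 2749 genes in either direction. The median log2 fold change of the 25 members was -0.54 against -0.01 over all genes. Among the 22 members expressed in all libraries, 17 were lower (77.3%) and 0 higher, with a median of -0.57. Hoxc8 fell by 1.13 ± 0.06 on the log2 scale (adjusted p = 0.00617 in edgeR), Hoxa5 by 1.09 ± 0.06 (adjusted p = 0.00617 in edgeR) and Hoxa2 by 1.08 ± 0.19 (adjusted p = 0.0233 in edgeR). Hoxa7 fell by 1.07 ± 0.10 (adjusted p = 0.0085 in edgeR). Hoxb5 had a log2 fold change of -0.92 ± 0.13, Hoxb3 of -0.73 ± 0.06 and Hoxb8 of -0.70 ± 0.06. The most abundant member, Hoxc6, had -0.49 ± 0.08 (adjusted p = 0.0208 in edgeR).

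The lower levels were seen within each line, though not for every member. The median log2 ratio of the tested members was -0.46 in WT, -0.59 in KO and -0.57 in Rescue, against -0.01, 0.00 and -0.01 over all genes tested. Of the 25 members, 19 were lower with TNF in all 3 pairs of libraries (76.0%), beside 31.7% of all genes, and 9 were lower by at least 1.5-fold in all 3 (36.0%), beside 4.35%. Hoxb13 is among the 19, on 2 and 0 counts in WT and 5 and 4 in KO, so its direction there carries no weight. The 25 and their medians also hold Hoxc10 and Hoxc13, which had at most 7 counts in these lines. After TNF, Hoxc8 stood at 44.3% of its untreated level in WT, 49.4% in KO and 43.4% in Rescue. Hoxa5 stood at 46.7%, 49.7% and 44.5%. Hoxa members expressed in all libraries had the largest median fall, -0.86, -0.65 and -0.90, against -0.41, -0.60 and -0.48 for Hoxb and -0.37, -0.41 and -0.42 for Hoxc. The difference between clusters was not tested.

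Of the 25 members, 8 did not pass with TNF. Hoxb7 was higher with TNF by 0.36 ± 0.10 but missed the threshold (adjusted p = 0.0616 in edgeR), with log2 ratios of 0.57, 0.21 and 0.28 in WT, KO and Rescue. Hoxb9 was at 0.07 ± 0.14 (adjusted p = 0.755 in edgeR), Hoxc9 at 0.04 ± 0.12 (adjusted p = 0.82 in edgeR) and Hoxa10 at -0.29 ± 0.19 (adjusted p = 0.305 in edgeR). Hoxb13, Hoxc10 and Hoxc13 did not pass either, and with at most 7 counts in the WT and KO libraries a change there was not detectable at this depth. Hoxa9, a group 9 paralogue of Hoxb9 and Hoxc9, was lower with TNF by -0.54 ± 0.11 (adjusted p = 0.0323 in edgeR, 0.0666 in DESeq2). Whether the 3 paralogues differ was not tested.

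**Figure D4:**
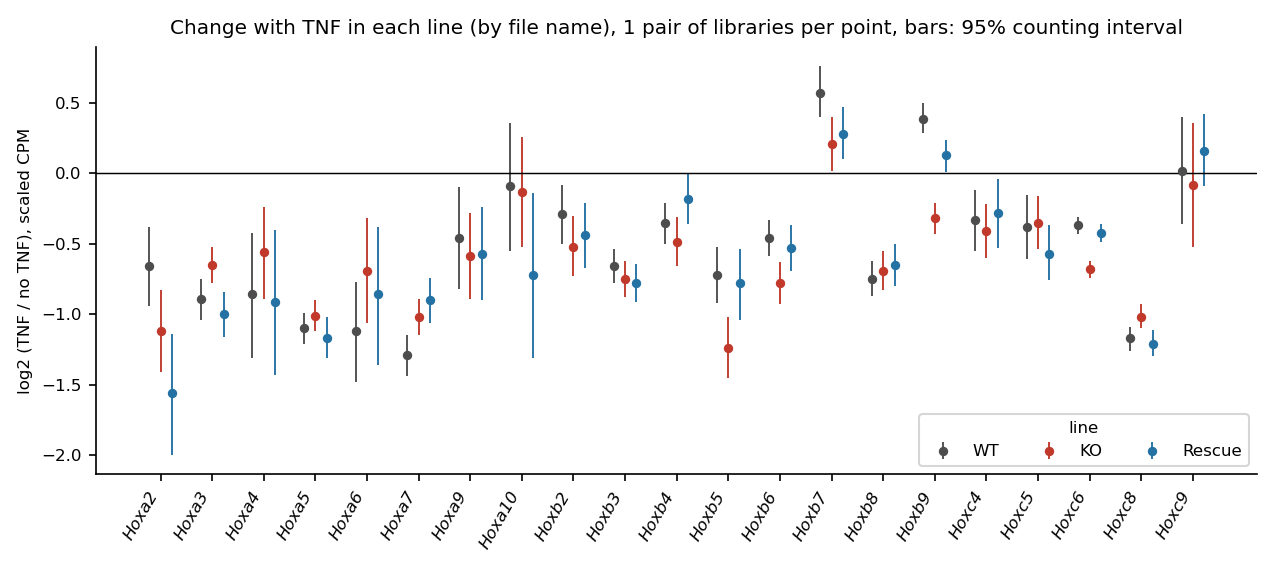
Log2 ratio of scaled CPM with TNF to that without (vertical) for members expressed in all libraries and reported here (horizontal), 1 point per line and pair of libraries; bars are 95% exact counting intervals and do not cover variation between cultures. Most members lie below 0 in all 3 lines, Hoxb7 lies above 0 in all 3, and Hoxb9 lies above 0 in WT and Rescue and below 0 in KO.

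The TNF result depends on the file-name grouping and on the libraries. By label, 0 members and 0.0% of 12729 genes passed for TNF, and likewise 0.0% for each of the 3 comparisons between lines. In that grouping edgeR had 3 members at an unadjusted p under 0.05 for TNF, beside 491 of all genes, and 0 for each of the line comparisons. Among the members DESeq2 called only Hoxc13, as higher with TNF, beside 97 genes in either direction. Of the 17 members called by file name, 1 had the opposite sign by label, Hoxc5 at 0.17. By file name, leaving out either library named Rescue gave 0 members called for TNF, and leaving out the library labelled WT or the one labelled KO gave 10. The sum of smooth muscle and fibroblast markers moved with the Hox genes, at 12027.7, 6172.2, 10993.3, 7148.2, 11154.7 and 4989.7 TPM. Of its 15 tested genes, 9 were lower with TNF and 1 was higher, beside 10.8% and 11.2% of all genes. The part of this marker sum in the lower Hox levels was not tested.

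Among the DNA-binding partners of Hox proteins, 4 of 9 TALE genes were lower with TNF and none higher in edgeR, beside 10.8% lower and 11.2% higher of all genes. Meis1 was at 39.91, 15.88, 34.25, 18.12, 32.47 and 14.76 TPM, and its fitted change was -1.03 ± 0.09 (adjusted p = 0.0085 in edgeR). Pknox2 changed by -1.06 ± 0.13 (adjusted p = 0.0123 in edgeR). Pbx3 and Meis2 were the others. For KO against WT, 3 were higher and 2 lower, beside 16.8% and 16.3% of all genes: Pknox2 at 0.56, Meis3 at 0.51 and Pknox1 at 0.37 were higher, and Meis2 at -0.35 was among the lower ones.

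Of 24 Polycomb genes, which encode repressors of silent Hox members, 4 were higher and 6 lower in KO than in WT, beside the same 16.8% and 16.3% of all genes. With TNF 2 were higher and 6 lower, beside 11.2% and 10.8%. Ezh2, the H3K27 methyltransferase, was higher in KO by 1.15 ± 0.11 (adjusted p = 0.00412 in edgeR) and in Rescue than in WT by 0.80 ± 0.11 (adjusted p = 0.0115 in edgeR). Its partner Suz12 was higher in KO by 0.68 ± 0.08, and Phf19 and Phc2 were the other two. The lower ones with the highest levels were Cbx6 at -0.54, Pcgf3 at -0.47, Rnf2 at -0.32 and Mtf2 at -0.29. Between Rescue and KO, 3 of the 24 were higher and 0 were lower, beside 9.79% and 10.6% of all genes. Of 10 Trithorax and H3K27 demethylase genes, 4 were higher in KO than in WT, beside 16.8% of all genes. They were Dpy30 at 0.60, Psip1 at 0.46, Ash2l at 0.45 and Wdr5 at 0.41. Kdm6b and Mll1 were lower, beside 16.3% of all genes. For Rescue against KO, 0 of these 10 passed in either direction, beside the same 9.79% and 10.6%.

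Of 14 tested genes that flank the clusters, 1 was higher and 1 lower with TNF, beside 11.2% and 10.8% of all genes. Their median was 0.07, against -0.54 for the Hox members and -0.01 over all genes. Calcoco1 was lower in KO than in WT by -0.77 ± 0.10, and Cbx5, Hnrnpa3, Lnp and Atp5g3 were higher. The Evx1 and Evx2 genes at the 5′ ends of Hoxa and Hoxd were at 0 throughout. Whether the flanking and the Hox genes differ was not tested.

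Transcripts that overlap Hox genes on the opposite strand were listed in the second quantification and had lower levels with TNF as well. Hoxb3os, which overlaps Hoxb3 and Hoxb2 (chr11:96343072-96354691), was at 54.5, 35.1, 45.5, 29.1, 42.7 and 24.5 TPM. Hoxaas3, which spans Hoxa3 to Hoxa7, was at 28.1, 12.7, 30.1, 16.8, 23.5 and 11.3 TPM. Hoxb5os was at 29.8, 11.5, 14.7, 7.0, 19.3 and 8.0 TPM, so that each of the 3 was lower with TNF in every line. The sources used here do not say whether counting used strand, so reads of these transcripts and of their Hox partners cannot be told apart. In the main tables, 9 transcripts of a list of 24 from inside the clusters were found, and the 1 tested did not pass in any comparison. Hotairm1, in the Hoxa cluster, was at 7.7, 12.6, 5.1, 2.8, 10.8 and 8.5 TPM and had no common direction. Hotair, the transcript between Hoxc11 and Hoxc12, was listed at 0 in the WT and KO libraries and at 0.1 and 0.2 TPM in Rescue. Hoxa9 also differed between the quantifications, with 24.8, 13.2, 29.0, 18.6, 28.5 and 15.7 TPM in the second.

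Splicing within Hox genes could be read at few nodes. A node that the files type as an alternative first exon of Hoxc6 (chr15:103000529-103000839) had a percent-spliced-in fraction of 0.281, 0.308, 0.194, 0.239, 0.201 and 0.273, on 107 to 180 estimated reads. It was lower in KO and Rescue than in WT in each treatment. A retained-intron node of Hoxa9 (chr6:52225618-52225790) had fractions of 0.518, 0.674, 0.629, 0.606, 0.667 and 0.730 on 32 to 101 estimated reads. With 1 library per group neither carries a test. Over all members the deposited junction tables held 2510, 1826, 2747, 1666, 2195 and 1329 reads, and the silent Hoxd members had none apart from 2 for Hoxd4 in Rescue.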

How the data were processed

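Per the file headers, the deposited gene tables hold RSEM expected counts and TPM for each of 6 libraries. The submitters' processing notes name RSEM; the sources used here give no version, aligner or build. For 1 library the transcript values were added up per gene. Also deposited by the authors were a second quantification (estimated counts and TPM), junction read counts, and a percent-spliced-in fraction per node with its estimated total reads, treated as a score. Gene positions came from GENCODE vM21 (GRCm38) by symbol, and upstream sequences from RefSeq (GRCm38.p6).

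Expected counts were rounded. Genes passing filterByExpr (12729 of 21675) were tested with edgeR 4.0.16 (R 4.3.3): quasi-likelihood, TMM factors, additive line and TNF over all 6 libraries, 2 residual degrees of freedom, Benjamini-Hochberg adjusted p under 0.05 over all genes. With no replicates, these p-values weigh an effect by how much it varied across the levels of the other factor, and nothing measures the spread between cultures. The script was tested on simulated counts. Ratios between libraries used CPM scaled by TMM factors, with exact 95% conditional binomial intervals. Alternatives were DESeq2 1.42.0, its size factors in edgeR, no filter, the second quantification, no TNF term, leaving out each library, and other TPM thresholds.

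Hox members reaching 5 TPM in any library are given in every library, those from 1 to 5 TPM by their highest value, and the rest are counted and named. A few genes that these rules select are counted but not reported here by name or drawn. Of the other lists, up to 4 called genes with the highest mean TPM are named for KO against WT; further genes were named after their values were seen. Counts over the 22 members at 1 TPM or more in every library were added after the values were seen. The members and lists were chosen with earlier results of these data known.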

Additional observations from a re-analysis of the deposited data

Results flagged for a closer look

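Hoxb9 changed in opposite directions with TNF between lines, beyond counting error in each. Its log2 ratio of TNF to no TNF was 0.39 in WT and 0.13 in Rescue (by file name), and -0.32 in KO. With 1 pair of libraries per line the difference was not tested.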

How the results depend on the processing

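By file name, edgeR called 7 members for KO against WT, 14 for Rescue against KO, 16 for Rescue against WT and 17 for TNF. The counts for both comparisons with Rescue include Hoxb13, Hoxc10 and Hoxc13. These entered the test through the Rescue libraries alone, so their calls carry no weight. DESeq2 called 4 for KO against WT. With TNF left out of the model the counts were 0, 2 and 1 for the line comparisons. Leaving out 1 library at a time gave 0 to 5, 0 to 14, 0 to 18 and 0 to 14 members for the 4 comparisons. By label every count was 0, also with each library left out, except that DESeq2 called 1 member for TNF. Other settings, including another scaling, no filter and the second quantification, kept each count within 1.5 times. By file name no called member changed sign under any of these. By label, 11 of the 54 calls, Hoxc10 in Rescue against KO among them, had the opposite fitted sign, and none of them passed there. At thresholds of 0.5 and 2 TPM and in the second quantification, the number of members expressed per line also stayed within 1.5 times of 22, 22 and 25. A fit without 1 library has 1 residual degree of freedom, so its lost calls partly reflect fewer samples. The line terms of the model already set each TNF library against the untreated library of its line.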

Other observations

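Genes that act upstream of Hox genes in the embryo were also read. The Cdx genes, which activate central and posterior Hox members, were at 0.17 TPM or less. Of 15 tested genes of this list, which holds the retinoic acid pathway, 3 were higher and 3 lower in KO than in WT, beside 16.8% and 16.3% of all genes, and 1 was higher and 4 lower with TNF, beside 11.2% and 10.8%. The retinoic acid binding protein Crabp1 was at 285.99, 187.67, 15.06, 12.28, 22.70 and 14.86 TPM, so that the WT libraries lay far above the KO and Rescue libraries. Gdf11, a signal that promotes posterior Hox genes in the embryo, was at 10.73, 10.50, 12.42, 10.53, 20.09 and 21.20 TPM, higher in Rescue than in WT by 0.87 ± 0.13 on the log2 scale (adjusted p = 0.0147 in edgeR).

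Of 39 tested transcription factors that mark other positions, 18 were higher and 5 lower in KO than in WT, and 3 were higher and 6 lower with TNF, beside the same shares of all genes. Nr2f2 was higher in KO by 0.84 ± 0.18 (adjusted p = 0.0246 in edgeR), with Foxc2 and Foxc1 also higher. Gata6 was lower by -1.31 ± 0.15 (adjusted p = 0.00596 in edgeR), and En1 was lower by -1.97 ± 0.21 (adjusted p = 0.00497 in edgeR), with Shox2 and Alx1 also lower. The limb-type genes Tbx4, Tbx5 and Pitx1 were at 0 in every library, while Prrx1, a limb and skull mesenchyme factor, was at 231.96 to 372.45 TPM.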
